A study of Homo sapiens with 48 samples.

Results

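RELA occupancy after 30 min TWEAK was compared region by region with that of vehicle-treated L3.6pl cells. A region called in the 30 min TWEAK list that shared no base with a vehicle region was counted as gained, a region that shared at least 1 bp with one was counted as kept, and a vehicle region with no counterpart at 30 min was counted as missing. On chromosomes 1 to 22 and X, outside tandem repeats, there were 383 gained, 298 kept and 138 missing regions. These 819 regions were compared here, of the 406020 regions held in the 16 peak lists of the series.

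L3.6pl is an established human pancreatic ductal adenocarcinoma (PDAC) cell line. The series measured RELA, RELB, FOSL1 and the histone mark H3K27ac by chromatin immunoprecipitation and sequencing (ChIP-seq) in 48 samples, with 3 replicates in each of 16 conditions. The 30 min TWEAK group had received TWEAK at 10 ng/ml for 30 min, and the vehicle group had received PBS, for a time that the sources used here did not give. The other lists consulted were RELA after 6 h TWEAK and after 30 min or 6 h TNFα (10 ng/ml), RELB in all of those conditions and in vehicle, H3K27ac in the same conditions, and FOSL1 in vehicle. Each condition had 1 list made from its merged replicates, so no value below has an error between replicates, and read depth was not known. Peak names of the 30 min TNFα list carried a tag for the first replicate beside the word merged, so it was not settled whether that list pooled all 3 replicates. In vehicle, H3K27ac lay at the start sites of 7 of 7 markers of pancreatic cancer epithelium, including EPCAM, KRT19 and MUC1. Among markers of leukocytes and macrophages it lay at CD68, and PTPRC, CD3E and CSF1R had none. For endothelium the count was 2 of 3 and for fibroblasts 2 of 5, beside 65.6% of all 19618 protein-coding genes.

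RELA is the activating subunit of canonical NF-κB. IκB proteins hold it in the cytoplasm until their degradation releases it to the nucleus, where it binds NF-κB motifs, and among its targets are the genes of its own inhibitors. TWEAK, the ligand TNFSF12, signals through the receptor Fn14 (TNFRSF12A) and the TRAF and cIAP proteins, and is known above all for the slower noncanonical route in which NIK (MAP3K14) leads to processing of p100 (NFKB2) and nuclear entry of RELB. TNFα is the classical activator of the canonical route.

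The sequences around the summits of 8 regions are shown because they carry the contrast between gained, kept and missing regions: 6 gained regions, of which 1 had the highest fold and 5 lay near genes of the NF-κB response, a kept promoter region and the strongest missing region. Coordinates are in hg38, the sequence is that of the plus strand, and capitals mark matches to the NF-κB consensus or, for CXCL8, to the AP-1 motif TGACTCA.

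downstream of NOG, gained, chr17:56654015-56654155: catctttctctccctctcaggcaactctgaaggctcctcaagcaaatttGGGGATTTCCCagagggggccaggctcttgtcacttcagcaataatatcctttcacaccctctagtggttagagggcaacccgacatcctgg

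CXCL8 promoter, gained, chr4:73740388-73740518: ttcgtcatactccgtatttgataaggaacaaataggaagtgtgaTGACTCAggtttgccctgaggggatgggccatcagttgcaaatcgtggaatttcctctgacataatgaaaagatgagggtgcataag

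upstream of CSF1, gained, chr1:109892641-109892781: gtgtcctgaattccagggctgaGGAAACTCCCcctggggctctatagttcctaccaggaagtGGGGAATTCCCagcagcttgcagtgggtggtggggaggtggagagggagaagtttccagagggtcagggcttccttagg

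CXCL2 promoter, gained, chr4:74099209-74099349: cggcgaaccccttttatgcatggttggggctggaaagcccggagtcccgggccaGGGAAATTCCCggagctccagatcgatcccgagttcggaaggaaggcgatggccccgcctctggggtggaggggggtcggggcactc

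TNFAIP3 intron 2, gained, chr6:137873401-137873601: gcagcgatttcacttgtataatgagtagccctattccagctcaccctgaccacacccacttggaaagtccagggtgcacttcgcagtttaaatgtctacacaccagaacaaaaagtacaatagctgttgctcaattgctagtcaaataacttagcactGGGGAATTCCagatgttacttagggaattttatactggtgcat

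MMP1 intron 6, gained, chr11:102794572-102794712: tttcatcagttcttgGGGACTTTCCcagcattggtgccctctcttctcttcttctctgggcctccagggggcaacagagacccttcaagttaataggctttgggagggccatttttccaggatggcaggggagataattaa

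RELB promoter, kept, chr19:45001295-45001435: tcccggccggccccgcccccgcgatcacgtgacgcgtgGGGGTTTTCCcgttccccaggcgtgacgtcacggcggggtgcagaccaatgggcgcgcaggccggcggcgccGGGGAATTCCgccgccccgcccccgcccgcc

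upstream of NRXN3, missing, chr14:78082934-78083074: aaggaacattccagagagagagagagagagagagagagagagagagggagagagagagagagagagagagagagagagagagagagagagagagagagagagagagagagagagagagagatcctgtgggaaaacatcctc

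The introns of MMP1 and TNFAIP3 each held 1 NF-κB match within the bases shown. The region downstream of NOG and the CXCL2 promoter each held 2 that overlapped. CSF1 had 3, with an overlapping pair among them, and RELB had 2 apart from each other. The CXCL8 window held an AP-1 match and no match to the NF-κB consensus as searched. Its bases tggaatttcc depart from that consensus, which starts with GGG, at the first base alone, and the search allowed no departure. Of the NF-κB matches shown, only those at CSF1 reached the summit, and the others lay to its side. The missing region upstream of NRXN3 was a nearly unbroken run of GA dinucleotides. A match is a description of the letters and not of a bound site.

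RELA regions outside tandem repeats were gained 2.78 times as often as they went missing after 30 min TWEAK (95% interval 2.28 to 3.40). Gained regions made up 56.2% of the 681 regions of the TWEAK list (exact interval 52.4 to 60.0) and missing regions 31.7% of the 435 regions of the vehicle list (27.4 to 36.3). Of the 3888 regions of either list with tandem repeats included, 23.6% were called at 30 min TWEAK alone and 28.6% in vehicle alone. Inside tandem repeats the direction was the opposite, with 533 gained and 973 missing regions, a ratio of 0.548 (0.492 to 0.609), so that with repeats included the ratio was 0.824 (0.755 to 0.901). Tandem repeats held 85.4% of the vehicle list and 75.5% of the TWEAK list. On 22 of 23 chromosomes there were more gained than missing regions outside them. These intervals cover the counting of regions only.

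The repeat rule read 1000 bp around each summit, and short repeats such as the GA run above passed it. When the 100 bp around each summit were examined, after the sequences had been seen, 38 of the 138 missing regions (27.5%, exact interval 20.3 to 35.8) and 18 of the 298 kept regions (6.04%) lay on a short repeat, against 2 of the 383 gained regions (0.522%). Without them 381 gained, 280 kept and 100 missing regions remained, and the ratio of gained to missing was 3.81 (3.05 to 4.80). The ratio also depends on the length of the lists. With the 400 strongest regions taken from each list it was 1.01, with 167 gained and 166 missing regions. Lists of equal length bring the ratio near 1 by construction.

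Gained regions were of moderate strength. Their fold enrichment over input had a median of 6.51 (quartiles 5.62 and 7.55, range 2.10 to 13.3), beside 9.07 for kept regions (7.02 and 11.6, up to 39.2) and 5.59 for missing regions (4.56 and 7.16, up to 19.4). The median −log10 q was 7.37, 16.2 and 6.28 in the same order. A q above 0.001 was found at 23 gained regions (6.01%), 1 kept region and 18 missing regions (13.0%). A region absent from a list is one that was not called there, which does not mean that it had no signal.

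The strongest gained region, with a fold of 13.3, lay 60386 bp downstream of the start site of NOG, which encodes the BMP antagonist noggin. It was called at 17.4 at 30 min TNFα and 13.5 at 6 h TNFα, but not at 6 h TWEAK. The region 3360 bp upstream of CKM, the muscle creatine kinase gene, had a fold of 13.1 at TWEAK and 18.9 at 30 min TNFα. At the promoter of GPBP1, a GC-rich promoter binding protein, the fold was 12.2, and 4.82 was left at 6 h TWEAK. CXCL8, the neutrophil chemokine interleukin 8, had its gained region 83 bp upstream of its start site, with a fold of 12.1 at 30 min TWEAK, 5.33 at 6 h TWEAK, 24.5 at 30 min TNFα and 20.0 at 6 h TNFα. CXCL8 thus had a region in every treated RELA list and none in vehicle, and the TNFα values were the higher ones. Next came regions near MAP7D2 (11.9), a microtubule-associated protein, in intron 1 of CD9 (11.5), a tetraspanin, and at the promoter of DHRS7B (11.4). Introns of PEX14 and GRK4 held regions with a fold of 11.4 each, for which the nearest start sites were those of CASZ1 and HTT. BHLHE40, a transcriptional repressor, had a region 47280 bp downstream with a fold of 11.1, and intron 5 of CTNNA3, an alpha-catenin gene, held another of 11.1. At the CTNNA3 region RELB was called in vehicle at 12.4 and in every other RELB list, and it held neither motif, as was the case for the PEX14 and BHLHE40 regions. RELB was called in vehicle at 1 more of the 15, near CCDC97 (5.27). The region 17531 bp upstream of CSF1, the macrophage colony-stimulating factor gene, had a fold of 11.1. The last of the 15 lay near CCDC97 (11.0), at the promoter of TYK2 (10.9), a JAK family kinase, and in intron 13 of PTK2 (10.7), which encodes focal adhesion kinase. All 15 were in both TNFα lists, 4 were in the 6 h TWEAK list, 11 in the 6 h TWEAK list of RELB, and 10 held an NF-κB motif. None of them lay on a short repeat.

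Genes of the NF-κB system and its known targets were taken from 13 lists with 109 genes. The lists were chosen with earlier results of these data known, so the shares below are not an independent test. Within 50 kb of a start site, 22 of the 109 genes had a gained region (20.2%), against 3.24% of all 19618 protein-coding genes. Kept regions lay near 25 of them (22.9%, against 2.68%) and missing regions near 6 (5.50%, against 0.897%). Neighbouring genes share regions, so the 22 genes rested on 18 gained regions. All 18 were called at 30 min TNFα, 15 held an NF-κB motif, 12 lay at a promoter and 3 were called at 6 h TWEAK.

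Among the NF-κB subunits, 3 of 5 had a gained region and 5 of 5 a kept region, that of RELA 45388 bp from its start site. NFKB2, which encodes p100, gained a region at a second start site, 13 bp upstream of it, with a fold of 7.12 at 30 min TWEAK, 7.74 at 30 min TNFα and 7.75 at 6 h TNFα. RELB was called at this NFKB2 region at 4.72 in vehicle and 14.2 at 6 h TWEAK. REL, encoding c-Rel, gained a region 217 bp upstream of a start site (5.18 at TWEAK, 13.2 at 30 min TNFα), with no NF-κB motif. The kept REL region, called in vehicle at 6.28, lay close by and had the same fold of 13.2 at 30 min TNFα. With regions within 500 bp taken as the same, the gained REL region counts as kept. RELA itself gained a region 140 bp upstream of its start site (4.89) and another 6798 bp downstream (6.21), which were called at 12.9 and 13.1 at 30 min TNFα. None of these gained regions, at NFKB2, REL and RELA, was called in the RELA list of 6 h TWEAK.

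Of the 6 IκB genes only NFKBIZ had a gained region, 224 bp upstream of one of its annotated start sites, with a fold of 6.66 at TWEAK and 18.9 at 30 min TNFα. The summit also fell in the last exon of the upstream gene NXPE3. NFKBIZ encodes the nuclear protein IκBζ. In the group of feedback regulators 1 of 10 had a gained region, TNFAIP3, which encodes the ubiquitin-editing enzyme A20. Its intron 2 had folds of 7.32 at 30 min TWEAK, 5.47 at 6 h TWEAK, 15.9 at 30 min TNFα and 13.8 at 6 h TNFα, and RELB was called there at 8.19 at 6 h TWEAK. Unlike most gained regions the TNFAIP3 intron had no H3K27ac in vehicle and had it at 30 min TWEAK. TRAF2, an adaptor of TNF receptor signalling, gained a region 795 bp downstream of its start site, with a fold of 6.33 and of 13.1 at 30 min TNFα, and it was the only gene of the 10 in its list to do so.

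Chemokine genes had gained regions in 4 of 12 cases. Besides CXCL8, the CXCL2 promoter had a fold of 8.09 at 30 min TWEAK, 17.6 at 30 min TNFα and 15.6 at 6 h TNFα. The CXCL5 promoter had 6.69, 16.6 and 13.0 in the same order, and that region also lay 39918 bp from CXCL3, which counts as the other gene. Neither the CXCL2 nor the CXCL5 region was called at 6 h TWEAK, whereas the CXCL8 region was. CXCL2 and CXCL5 encode neutrophil chemokines of the same cluster.

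Cytokine genes had gained regions in 4 of 10 cases. The CSF1 region had folds of 11.1 at 30 min TWEAK, 4.88 at 6 h TWEAK, 18.7 at 30 min TNFα and 14.2 at 6 h TNFα. IL32 gained a region 2 bp upstream of a start site (8.06, and 17.6 at 30 min TNFα), which also lay 44931 bp from TNFRSF12A, the TWEAK receptor gene and the only receptor gene of 12 with a gained region. IL1B and IL1A shared a region 21937 bp from the start site of IL1B (6.54, and 12.4 at 30 min TNFα). At IL32, as at TNFAIP3, H3K27ac was called at 30 min TWEAK and not in vehicle.

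In the remaining lists BBC3, the pro-apoptotic gene PUMA, had a gained promoter region (8.63 at TWEAK, 12.0 at 30 min TNFα), the only gene of 8 in the survival and apoptosis list. FOSL1 (8.66, 26630 bp away) and BATF (7.40, 38520 bp away) were the 2 of 10 AP-1 family genes. A region in intron 6 of MMP1, the interstitial collagenase gene, had 7.25 at 30 min TWEAK, 11.4 at 30 min TNFα and 12.2 at 6 h TNFα, and accounted for all 3 of 7 matrix metalloproteinase genes counted (MMP1, MMP3 and MMP10). TNFSF12, the gene of TWEAK itself, had a gained region 12108 bp downstream of its start site (4.54), the lowest of these folds, in 1 of 9 ligand genes. This summit fell in the last exon of the TNFSF12-TNFSF13 readthrough gene. None of the 5 adhesion genes, with ICAM1 among them, and none of the 5 stress enzyme genes had a gained, kept or missing region.

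**Figure D1:**
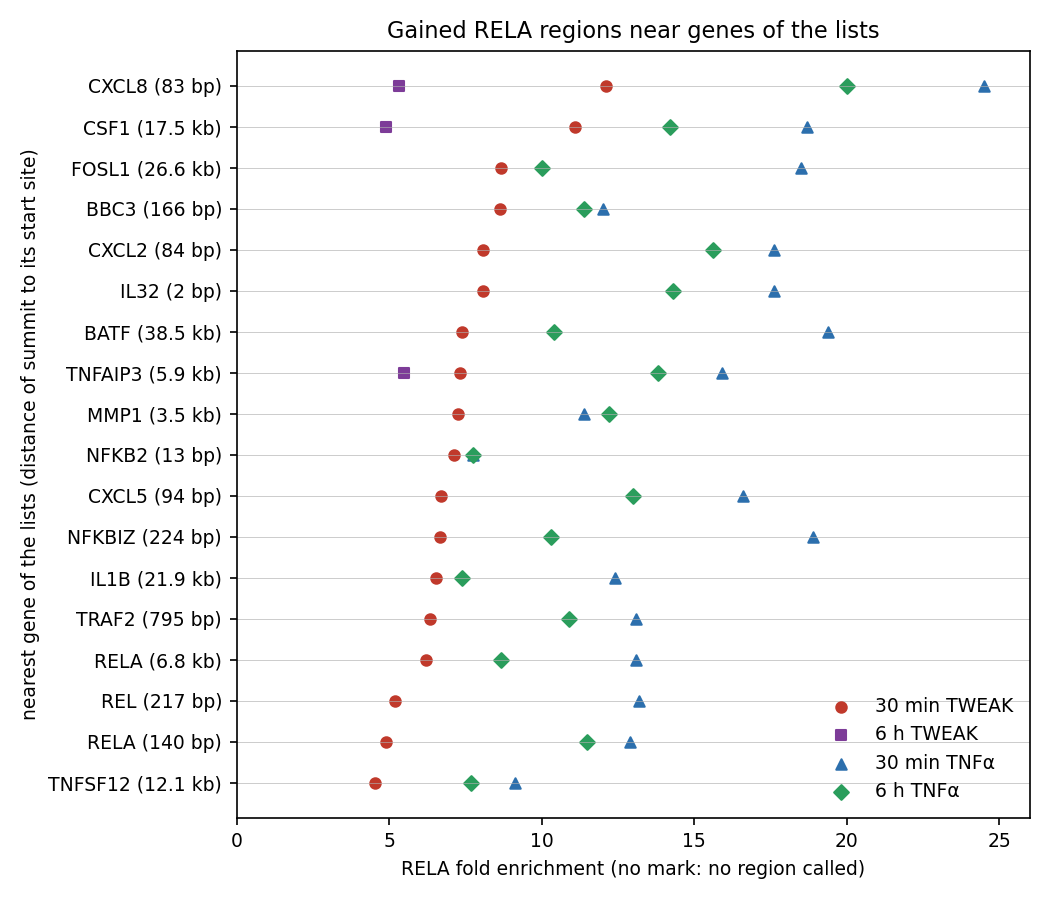
Fold enrichment over input (horizontal axis) of the 18 gained regions near genes of the lists, each row labelled with the nearest list gene and the distance from the summit to its start site. Marks show the pooled RELA list of 30 min TWEAK, 6 h TWEAK, 30 min TNFα and 6 h TNFα, and no mark means no region was called. All 18 have a mark at 30 min TNFα to the right of the one at 30 min TWEAK, and 3, at CXCL8, CSF1 and TNFAIP3, have one at 6 h TWEAK.

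RELA regions already called in vehicle mostly had a higher fold after 30 min TWEAK. At 239 of the 298 kept regions (80.2%) the TWEAK fold was above the vehicle fold, with a median ratio of 1.28, whereas at kept regions in tandem repeats it was above at 836 of 1563 (53.5%), with a median ratio of 1.01. Of the 197 kept regions with an NF-κB motif, 173 were higher at TWEAK (87.8%, median ratio 1.37), and of the 101 without it 66 were (65.3%, 1.09). The 18 kept regions on a short repeat went the other way, with 3 higher at TWEAK and a median ratio of 0.557. After these had been left out, 63 of 83 kept regions without the motif were higher (75.9%, 1.13). No test was made of these folds, which come from 1 pooled list per condition.

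Near genes of the lists, 23 of 24 kept regions had the higher fold at TWEAK. The main NFKB2 promoter had a fold of 11.3 in vehicle, 20.7 at 30 min TWEAK and 11.4 at 6 h TWEAK. NFKB1, encoding p105, had 8.71, 15.6 and 6.23, and the RELB promoter had 8.64, 15.2 and 5.99. At 6 h NFKB1 and RELB lay below their vehicle value and NFKB2 lay near it. Among the inhibitors, the promoter region of NFKBIA, which encodes IκBα, had 14.9 in vehicle and 16.4 at 30 min TWEAK, and a start site of NFKBIZ had 5.81 and 12.3. NFKBIE (6.67 and 11.4), NFKBIB (6.72 and 8.09) and BCL3 (7.81 and 11.8, with a second region at 6.86 and 6.88) completed the 5 of 6 IκB genes with a kept region. The TNFAIP3 promoter had 13.9 and 16.8, and the feedback genes TNIP1 (11.2 and 12.1), CYLD (9.26 and 10.3) and ZC3H12A (4.43 and 7.13) also had kept regions. BIRC3, encoding cIAP2, had 10.6 and 15.1 at its promoter. The exception among the 24 lay between BIRC3 and BIRC2, at 6.90 in vehicle and 5.31 at TWEAK. Kept regions further lay near REL (6.28 and 9.51), RELA (6.09 and 7.37), TNFRSF10B (11.4 and 18.2, also counted for TNFRSF10C), CXCL3 (5.51 and 6.18), LIF (7.40 and 8.46), IL23A (5.54 and 7.79), JUNB (5.84 and 8.12) and IL1A with IL1B (6.63 and 6.66).

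The 10 strongest kept regions were a mixture. NFKB2, PLA2G6 (14.5 in vehicle, 19.4 at TWEAK), a phospholipase gene, and CCNL1 (11.7, 19.3), the cyclin L1 gene, held an NF-κB motif and were higher at TWEAK. The other 7 held none. NECTIN1 (37.9, 20.2), ELMOD1 (34.8, 19.1) and MAP4K4 (33.6, 19.0) lay on short repeats. Another 3 of the 10, the strongest, 362346 bp from IRS2, and that in KIF5C among them, matched the mitochondrial genome, with folds from 18.2 to 40.2 in vehicle and from 21.4 to 39.2 at TWEAK. Such matches were found at 12 kept regions in all, 1 missing region and 0 gained regions. The region near OVCH2 (16.9, 21.1) was another of the 7. Of all kept regions 33 were called in every one of the 10 RELA and RELB lists, 18 of them were higher at TWEAK, and the median ratio there was 1.01.

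**Figure D2:**
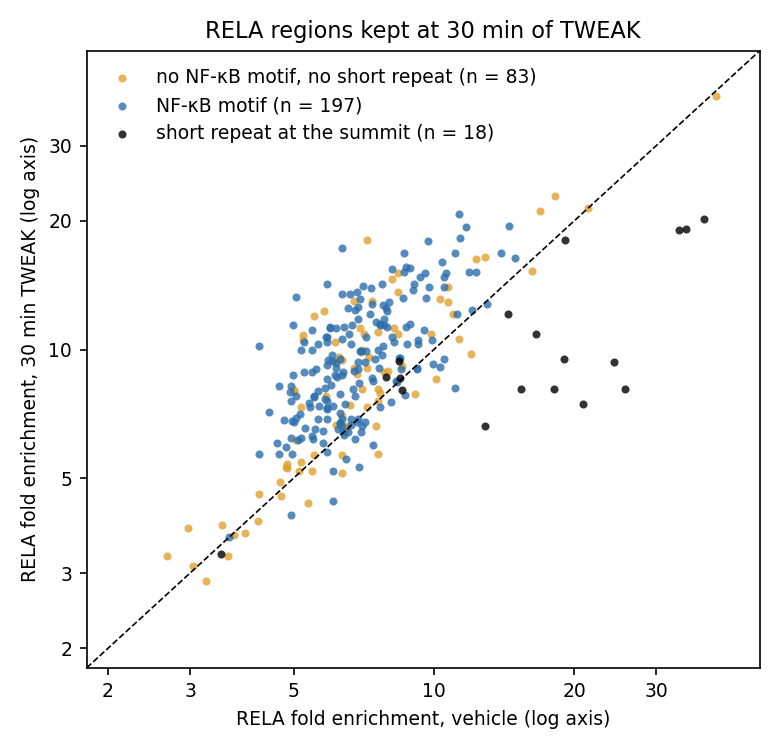
Fold enrichment over input of the 298 kept RELA regions in vehicle (horizontal log axis) and at 30 min TWEAK (vertical log axis), 1 point per region, with equality as the dashed line. Of the 197 regions with an NF-κB motif 173 lie above the line, and of the 18 with a short repeat at the summit 15 lie on or below it.

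Missing regions differed from gained regions in what they held. The 8 strongest lay near NRXN3 (19.4), KCNJ3 (14.8), AMY1C (12.5), NBPF11 (11.5) and in introns of CDK12 (12.2), LARP4 (11.4), TCF7L2 (11.0) and TRAF2 (10.7). All but the TRAF2 region lay on short repeats. AMY1C and NBPF11 belong to gene families with near-identical copies, and how reads were assigned at these regions was not tested. Of the 8, 6 were called again at 6 h TWEAK and 8 at 6 h TNFα. The TRAF2 region, in intron 4, had 10.7 in vehicle, 10.3 at 6 h TWEAK, 16.4 at 30 min TNFα and 20.5 at 6 h TNFα, with no region at 30 min TWEAK. RELB at TRAF2 was called at 8.06 in vehicle, 22.8 at 6 h TWEAK and 11.1 at 6 h TNFα, with no region at 30 min of either ligand. Further missing regions near list genes lay upstream of TNIP1 (4.44), in intron 1 of the death receptor genes TNFRSF10A (5.99) and TNFRSF10B (4.62, also counted for TNFRSF10C) and 12444 bp upstream of FOSL1 (5.57). All 5 of these regions held an NF-κB motif and were called at 30 min TNFα, and 4 were called again at 6 h TWEAK.

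Few gained regions persisted, in the sense of being called again at 6 h TWEAK. RELA was called there at 62 of the 383 gained regions (16.2%, exact interval 12.6 to 20.3), beside 215 of the 298 kept regions (72.1%). Folds at kept regions were also lower at 6 h TWEAK. Their median was 6.21 where called, beside 9.07 at 30 min TWEAK and 6.85 in vehicle. A gained region not called at 6 h may still have had RELA signal. Of the missing regions 48 (34.8%) were called again at 6 h, and 40 of 100 (40.0%) once short repeats were left out. At the 62 persisting regions the fold had a median of 6.29 at 30 min and 5.11 at 6 h, and it was higher at 30 min in 48 of them. The share was not higher at stronger regions, and the intervals overlapped. Of the 128 gained regions with folds from 2.10 to 5.91, 26 persisted (20.3%, 13.7 to 28.3), and of the 124 with folds from 7.13 to 13.3, 20 did (16.1%, 10.1 to 23.8). An NF-κB motif was present in 38 of the 62 (61.3%) and in 225 of the other 321 (70.1%), and an AP-1 motif in 14 (22.6%) and 36 (11.2%). These pairs of shares were not tested.

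The 8 persisting regions with the highest 6 h folds were led by the promoter of GALNT18, a GalNAc transferase gene, with 9.88 at 30 min and 8.56 at 6 h TWEAK. The region 22372 bp from QPCT, the glutaminyl cyclase gene, had 5.87 and 7.08, and that in an intron near PRORP had 6.08 and 6.96. The promoter of SMG1, a kinase of nonsense-mediated decay, had 6.30 and 6.64. PHC2, a Polycomb gene, had 7.55 and 6.58, CCNG1, the cyclin G1 gene, had 6.83 and 6.46, and PSMD14, a proteasome subunit gene, had 4.96 and 6.45. The region 697967 bp from TPTE (4.87 and 6.49) was the only one of the 8 outside the 30 min TNFα list. GALNT18 and SMG1 had the highest RELB folds of the 8 at 6 h TWEAK, 14.0 and 13.9.

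RELB was called at more gained regions than RELA at 6 h TWEAK. At 6 h TWEAK 48 gained regions carried both proteins (12.5%), 14 RELA alone (3.66%), 158 RELB alone (41.3%, 36.3 to 46.4) and 163 neither (42.6%). RELB was thus called at 48 of the 62 gained regions where RELA was still called and at 158 of the other 321. RELB was called at 206 gained regions at 6 h TWEAK (53.8%), at 26 in vehicle (6.79%) and at 6 at 30 min TWEAK (1.57%). Of kept regions RELB held 266 (89.3%) and of missing regions 65 (47.1%) at 6 h TWEAK. The NOG, CKM, CD9, TYK2 and PTK2 regions, all strong at 30 min, were in the RELB list and not in the RELA list at 6 h.

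Most gained regions were also RELA regions after TNFα. At 30 min TNFα 360 of 383 gained regions were called (94.0%), beside 288 of 298 kept (96.6%) and 70 of 138 missing regions (50.7%). Gained and missing regions differed (odds ratio 15.2, adjusted p = 4.30e-26 by Fisher's exact test), also without short repeats (94.5% against 66.0%, adjusted p = 1.10e-11). Gained and kept regions differed by 2.65 percentage points (odds ratio 0.543, 0.255 to 1.16, adjusted p = 0.213 by the exact test), and without short repeats by 3.73 points, 94.5% against 98.2% (adjusted p = 0.0214). Regions are not replicates, so this test and those below speak for these lists and not for the conditions. The Fisher tests, 10 in the family, were adjusted by Benjamini-Hochberg. Those without short repeats, and those under each other alternative, were adjusted as a separate family of 10. McNemar p-values were not adjusted. At the 360 shared regions the median fold was 6.60 at TWEAK and 13.8 at TNFα, and TNFα was higher at 354 (98.3%, median ratio 2.07). At 6 h TNFα 352 gained regions were called (91.9%), with TNFα higher at 305 of them and a median of 9.80.

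The 23 gained regions outside the 30 min TNFα list were weak, with a median fold of 4.74 and a highest fold of 7.51. None held an NF-κB or AP-1 motif, 6 had H3K27ac in vehicle (26.1%) and 7 were called at 6 h TWEAK (30.4%). TNFα itself gained 7945 regions over the same vehicle list and left 76 missing. The comparisons share their vehicle list. Outside tandem repeats the 6 h TNFα list held 3657 regions and the 6 h TWEAK list 450. Of the TNFα gains 32.5% were called at 6 h TNFα (31.5 to 33.5), beside the 16.2% for TWEAK given above. Their median fold was 6.16, beside 6.51 for the TWEAK gains. These medians cover unlike sets of regions and do not compare the ligands. At the 360 gained regions called after both ligands TNFα had the higher fold at 354.

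**Figure D3:**
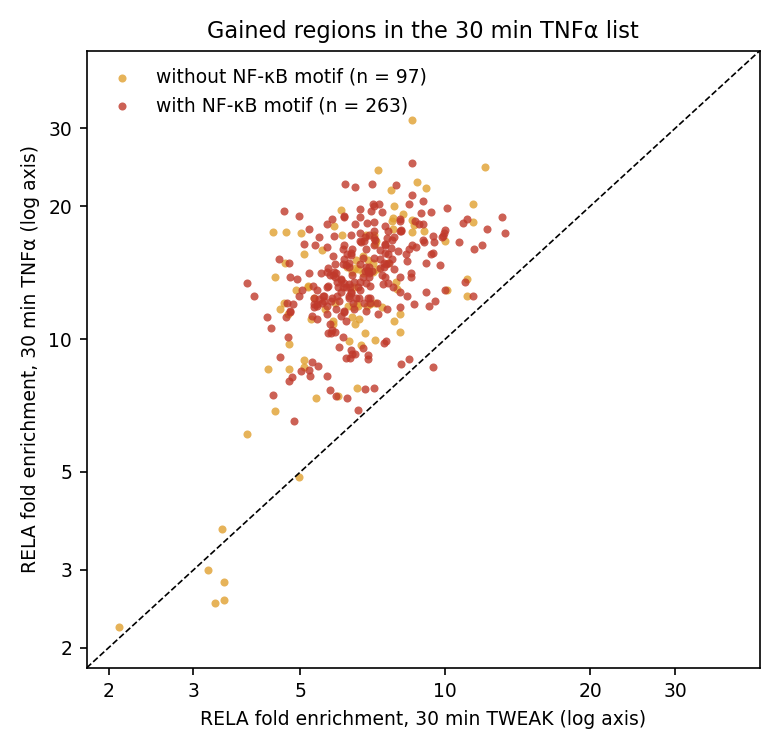
Fold enrichment over input at the 360 gained regions called after both ligands, for 30 min TWEAK (horizontal log axis) and 30 min TNFα (vertical log axis), 1 point per region, with equality as the dashed line. The points, 263 with and 97 without an NF-κB motif, lie above the line at 354 regions.

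NF-κB motifs were more frequent in gained than in missing regions. The consensus was read on both strands in 200 bp around the summit. It occurred in 263 gained (68.7%), 197 kept (66.1%) and 42 missing regions (30.4%). It was found in 49.5% of the 8304 RELA regions of 30 min TNFα outside tandem repeats and in 8.16% of windows of the same length at 78281 start sites. Of 47957 FOSL1 comparison regions 4.25% held it. These were FOSL1 regions of vehicle, outside tandem repeats, that overlapped no region of any RELA or RELB list. Regions bound by RELA or RELB were thus removed from them beforehand. Gained exceeded missing regions (odds ratio 5.01, Fisher's exact test, adjusted p = 5.23e-14), and without short repeats the shares were 69.0% and 42.0% (adjusted p = 6.04e-06). Gained and kept regions differed by 2.56 points (odds ratio 1.12, 0.814 to 1.55, adjusted exact p = 0.626). All 263 gained regions with the motif were called at 30 min TNFα. Split by the motif, there were 6.26 gained regions per missing region with it (4.51 to 8.89) and 1.25 without it (0.948 to 1.65). None of the regions on short repeats held the motif. Once they were left out, 118 gained and 58 missing regions without the motif remained, and the counts with it stayed the same.

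The AP-1 motif, TGACTCA or TGAGTCA, was less frequent in gained than in kept regions. It occurred in 50 gained (13.1%), 77 kept (25.8%) and 21 missing regions (15.2%). Beside these stood 15.0% of the RELA regions of 30 min TNFα, 43.2% of the FOSL1 comparison regions and 2.44% of start site windows. Gained and kept regions differed (odds ratio 0.431, adjusted p = 4.64e-05, Fisher's exact test), while gained and missing regions were not told apart (0.837, 0.482 to 1.45, adjusted p = 0.626). The latter difference, -2.16 points, was -7.88 points without short repeats (odds ratio 0.568, adjusted exact p = 0.0714) and 3.59 points in the other direction with tandem repeats included (adjusted exact p = 2.48e-05). FOSL1, the AP-1 subunit measured in vehicle, was called at 266 gained (69.5%), 255 kept (85.6%) and 63 missing regions (45.7%). Gained fell below kept (odds ratio 0.383, adjusted exact p = 1.83e-06) and above missing regions (2.71, adjusted p = 2.20e-06), also without short repeats (69.8% against 56.0%, adjusted exact p = 0.0198). Both motifs together were present in 33 gained (8.62%), 58 kept (19.5%) and 17 missing regions (12.3%).

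H3K27ac, a mark of active promoters and enhancers, lay within 500 bp of the summit of 311 gained (81.2%), 243 kept (81.5%) and 68 missing regions (49.3%) already in vehicle. Gained and missing regions differed (odds ratio 4.45, Fisher's exact test, adjusted p = 1.07e-11), and without short repeats the shares were 81.6% and 64.0% (a difference of 17.6 points in place of 31.9, adjusted exact p = 7.20e-04). Gained and kept regions differed by 0.343 points (odds ratio 0.978, 0.663 to 1.44, adjusted exact p = 0.921). After 30 min TWEAK 25 gained regions had the mark that lacked it in vehicle and 6 had lost it, a ratio of 4.17 (McNemar's exact test over regions, p = 8.78e-04). Over the 47957 FOSL1 comparison regions, which left out all RELA and RELB regions, the balance was the reverse, 841 to 5446. Missing regions had 1 to 12 (exact p = 0.00342) and kept regions 9 to 4 (exact p = 0.267). The count at gained regions depended on the distance, since it became 1.29 (exact p = 0.471) when the H3K27ac region had to overlap the RELA region. At 6 h TWEAK it was 18 to 9 (exact p = 0.122). The shift was not particular to TWEAK. The same gained regions had 36 to 4 at 30 min TNFα and 32 to 3 at 6 h TNFα. Kept regions had 16 to 2 and 12 to 2 in that order, and missing regions 2 to 8 and 11 to 4. The FOSL1 comparison regions had 817 to 6300 and 1841 to 2011.

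The 25 regions with H3K27ac at 30 min and not in vehicle included the promoters of IL32 (8.06) and BBC3 (8.63), intron 2 of TNFAIP3 (7.32), and regions 3083 bp downstream of GDF15 (7.50), a stress-induced cytokine gene, and 10076 bp upstream of EGLN3 (7.13), a prolyl hydroxylase gene. ETS2, a transcription factor gene, had such a region 22001 bp downstream (7.12), and NAMPT, an enzyme of NAD synthesis, 139180 bp upstream (6.64). An NF-κB motif was present in 18 of the 25 (72.0%) and FOSL1 in 10 (40.0%), beside 238 of the 305 gained regions marked in both lists (78.0%). Apart from those of the lists above, these genes were chosen after their values had been seen.

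**Figure D4:**
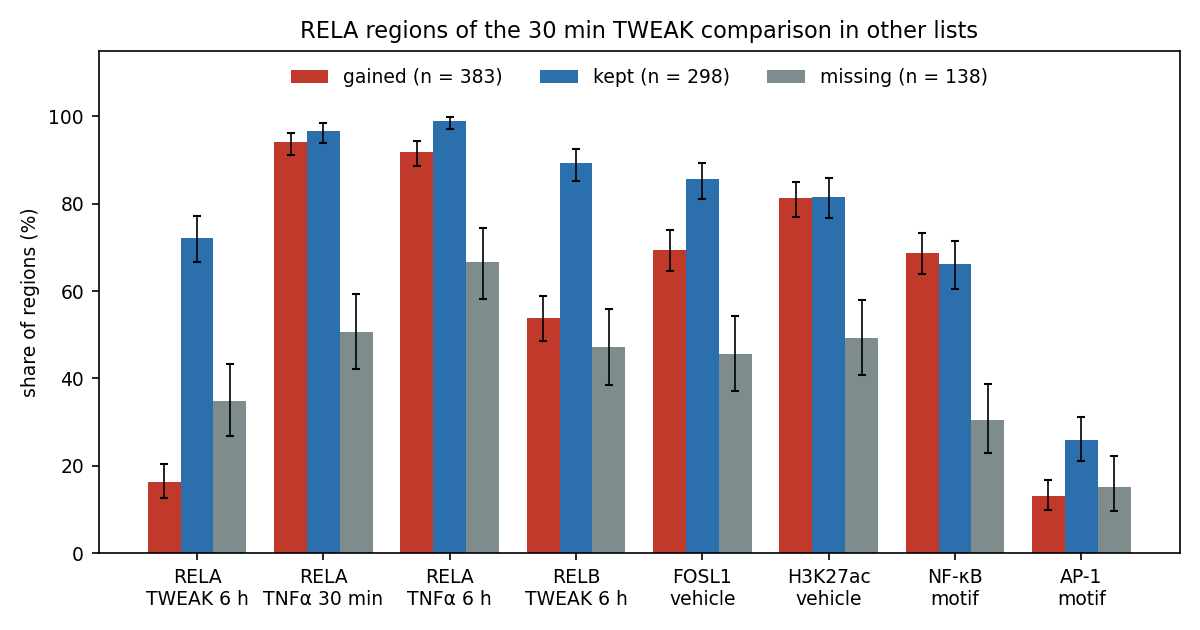
Share of gained (383), kept (298) and missing (138) RELA regions, in percent, that were called in another list or held a motif within 200 bp of sequence around the summit. Bars show shares and error lines the exact 95% binomial interval, for counting error only. Gained regions reach 94.0% in the 30 min TNFα list and 16.2% in the 6 h TWEAK list, where kept regions reach 72.1%.

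Gained regions were at promoters more often than missing regions were, with exact intervals that did not overlap; no test was made. A summit within 1 kb of a start site of a protein-coding gene was found for 118 gained (30.8%, exact interval 26.2 to 35.7), 68 kept (22.8%, 18.2 to 28.0) and 11 missing regions (7.97%, 4.05 to 13.8). The median distances were 9817, 11637 and 38228 bp. Outside promoters, 93 gained regions (24.3%) were intronic and 168 (43.9%) intergenic. Gained promoter regions held an NF-κB motif in 95 of 118 cases (80.5%) and an AP-1 motif in 5 (4.24%), and distal gained regions in 168 (63.4%) and 45 (17.0%) of 265. At 6 h TWEAK RELA was called at 15 gained promoter regions (12.7%) and at 47 distal ones (17.7%). The 383 gained regions had 360 different nearest genes, and 19 genes had 2 or more. CCDC200 had the most with 4, and TPTE and ZFP36L2, an mRNA decay factor gene, had 3 each. Among those with 2 were BHLHE40, CD47, ELF3, HIVEP2, PTGER4, RELA and TNFAIP3, again chosen after the counts had been seen.

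**Figure D5:**
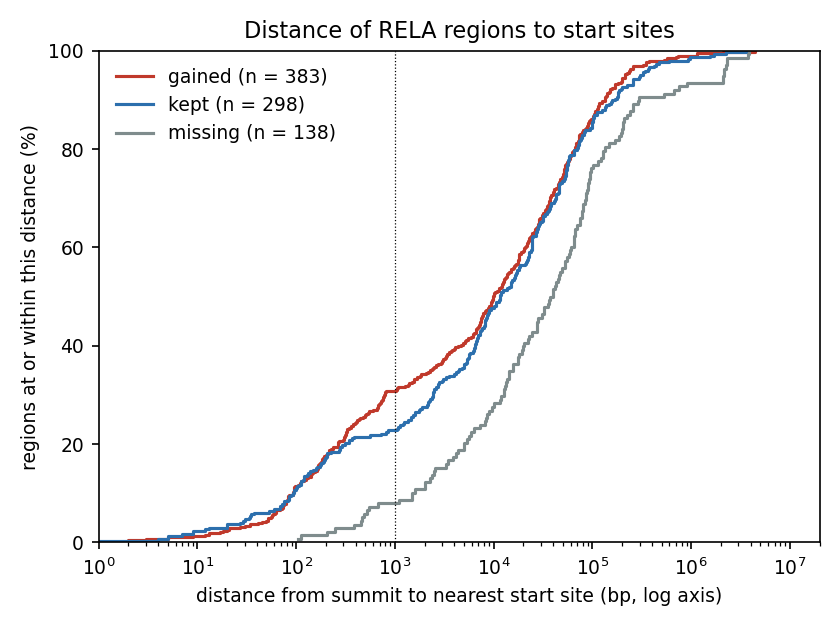
Cumulative share of gained, kept and missing RELA regions (vertical axis, percent) by distance from the summit to the nearest start site of a protein-coding gene (horizontal log axis, bp). The dotted line marks 1 kb, which 30.8% of gained, 22.8% of kept and 7.97% of missing regions do not exceed.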

How the data were processed

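ChIP-seq of L3.6pl cells was deposited as 1 peak list per condition. Bowtie2 2.5.0 was used by the authors for mapping to hg38. They merged the 3 replicates and called peaks against input with MACS2, narrow for RELA, RELB and FOSL1 and broad for H3K27ac, at a stated cutoff of 0.05. The deposited columns used were the fold enrichment over input (a ratio at the summit), the −log10 q value and the summit offset. The deposited score column was not used. The lists hold no read counts, so depth is unknown and only calls and folds were compared.

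Chromosomes 1 to 22 and X were compared with an overlap of at least 1 bp. A region was placed in a tandem repeat when the 1000 bp around its summit matched themselves in at least 0.4 of bases at a shift of up to 400 bp. The limit cut through a continuum, with 127 TWEAK and 143 vehicle regions between 0.35 and 0.45, and the nearest TWEAK regions at 0.400 (fold 6.64) and 0.403 (fold 5.36). Short repeats were 100 bp windows with a self-match of at least 0.6 at shifts of up to 50 bp. Mitochondrial matches came from BLAST 2.17.0 (at least 90% identity over at least 100 bp). Genes, start sites and introns are those of GENCODE 44 protein-coding genes. Shares have exact Clopper-Pearson 95% intervals, ratios of counts have exact intervals, and tests were Fisher's and McNemar's exact tests (SciPy 1.17.1), two-sided, tried on simulated data first. A threshold of 0.05 was used on Benjamini-Hochberg adjusted p of the Fisher tests, and on unadjusted p of the McNemar tests.

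The genes named were those nearest the 15 strongest gained, 10 strongest kept and 8 strongest missing regions and the 8 persisting regions with the highest 6 h folds, and list genes with a region within 50 kb. A few items that these rules select are not reported here. The regions, gene lists and tests were chosen with earlier results of these data known. Alternatives covered the repeat limit, q and fold thresholds, the overlap, list length, windows and gene distance.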

Additional observations from a re-analysis of the deposited data

How the results depend on the processing

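No paired analysis was possible because the replicates of each condition were merged before peak calling and the lists carry no replicate. Leaving out a replicate was not possible for the same reason. Of 102 values recomputed under 15 alternatives, 83 kept their direction and their side of the threshold or stayed near their value. The ratio of 2.78 gained per missing region became 1.62 at a repeat limit of 0.5 (451 kept, 263 missing regions), 3.94 at a fold of at least 5 in both lists (88 missing regions), 3.81 without short repeats (an alternative chosen after seeing the data) and 1.01 with the 400 strongest regions of each list (167 gained), where lists of equal length bring the ratio near 1 by construction. With tandem repeats included it reversed to 0.824 (916 gained, 1861 kept, 1111 missing), the share of gained regions called at 6 h TWEAK was 33.5%, and the FOSL1 difference between gained and missing regions shrank to 2.78 points (adjusted p = 0.188, exact test). The AP-1 difference of -2.16 points between gained and missing regions changed sign to 3.58 at the limit of 0.5, 3.59 with repeats included (adjusted p = 2.48e-05, exact test) and 1.25 in a 100 bp window. The H3K27ac ratio of 4.17 at gained regions became 1.29 where the mark had to overlap the region. List genes with a gained region numbered 12 within 10 kb and 32 within 100 kb. Apart from repeats, the causes of these shifts were not tested.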
